A study of Homo sapiens with 8 samples.

Results

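The BCL2 family decides whether the outer membrane of the mitochondria stays intact. The genes described here are the rows of the deposited count table whose symbol is BCL2, BCL2L1, MCL1, BCL2L11, BBC3, PMAIP1, BAX, BAK1, BID or BIK, 10 of 35394 rows, and all 10 passed the filter on low counts. They were followed in HCT116, a human colorectal cancer line of epithelial cells whose genotype the labels give as a ras mutation in every sample. Poly(A) RNA was sequenced from 4 libraries of cells treated with PZH, the traditional Chinese formula Pien Tze Huang, for 24 h and from 4 libraries of cells given DMSO as the control. The labels state no dose of PZH, all libraries come from 1 cell line, and nothing says whether replicates were separate cultures, so p-values measure only the spread between these libraries, which may be technical.

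Proteins of this family share short stretches called BCL2 homology (BH) regions and act by binding each other. The survival proteins BCL2, BCL-xL (from BCL2L1) and MCL1 hold the effectors BAX and BAK in check, and the effectors, once active, form pores that release cytochrome c and start the caspases. The other class, the BH3-only proteins, senses stress and occupies the grooves of the survival proteins: here these are BIM (from BCL2L11), PUMA (BBC3), NOXA (PMAIP1), BID and BIK. Several are set by transcription, PUMA and NOXA being classic targets of p53 that stress factors such as ATF4 and CHOP also raise, while others, such as MCL1 and BID, are also set by protein turnover or cleavage, which RNA counts do not show.

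Libraries held 19288836 to 19917571 counts in DMSO and 18144117 to 18868057 in PZH. Markers of epithelial cells (EPCAM, CDH1, KRT8, KRT18 and KRT19) summed to 3832 to 3899 CPM (a count divided by the size of its library, on a common scale) in DMSO and 2372 to 2698 CPM in PZH. Those of immune (4 genes), endothelial (3) and erythroid cells (3) each stayed at or below 1.48 CPM in every library, and the 4 fibroblast markers summed to 11.3 to 13.9 CPM in DMSO and 16.8 to 20.2 CPM in PZH, with COL1A2 at 0 counts and COL1A1 the most abundant. The part of these markers in the results was not tested. Levels below are CPM scaled with TMM (trimmed mean of M values, which allows for differences in RNA composition), per library in the order of replicates 1 to 4, and means are given with SD, n = 4 per group. The marker sums above are not scaled with TMM. The TMM factors were 1.09 to 1.10 in DMSO and 0.896 to 0.949 in PZH. With them the epithelial fall would be smaller and the fibroblast rise larger. In bulk RNA a lower level from fewer expressing cells and from less RNA per cell cannot be told apart.

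Promoters of 3 genes are shown because PMAIP1 and BBC3 rose the most of the 10 genes and BAX is the effector that fell; each is the run of 250 bases before the RefSeq transcription start, on GRCh38.p14, read 5′ to 3′ on the strand of the gene. In PMAIP1 (chr18:59899746-59899995, plus strand) capitals mark the core of a cAMP response element, TGACGT read on the other strand, starting 56 bases before the start. In BBC3 (chr19:47232668-47232917, minus strand) they mark an AP-1 motif, TGANTCA, 113 bases before the start. In BAX (chr19:48954625-48954874, plus strand) they mark 4 E-boxes, CACGTG, which begin 138, 93, 45 and 14 bases before the start. In GENCODE v29, used for the gene positions below, all 3 genes begin inside these windows. The distances therefore hold for the RefSeq starts only. By GENCODE v29 BAX begins at position 48954815, so its E-boxes at 45 and 14 bases lie inside the gene.
PMAIP1: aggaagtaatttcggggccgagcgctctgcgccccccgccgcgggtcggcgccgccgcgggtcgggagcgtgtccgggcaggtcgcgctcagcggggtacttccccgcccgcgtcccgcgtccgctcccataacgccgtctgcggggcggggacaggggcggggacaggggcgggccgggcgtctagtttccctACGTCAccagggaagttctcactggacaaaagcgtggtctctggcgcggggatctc
BBC3: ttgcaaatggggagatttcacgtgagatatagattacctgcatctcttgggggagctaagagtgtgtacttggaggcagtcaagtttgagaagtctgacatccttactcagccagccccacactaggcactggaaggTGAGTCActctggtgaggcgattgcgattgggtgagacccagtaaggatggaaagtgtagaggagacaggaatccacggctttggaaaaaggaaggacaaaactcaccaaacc
BAX: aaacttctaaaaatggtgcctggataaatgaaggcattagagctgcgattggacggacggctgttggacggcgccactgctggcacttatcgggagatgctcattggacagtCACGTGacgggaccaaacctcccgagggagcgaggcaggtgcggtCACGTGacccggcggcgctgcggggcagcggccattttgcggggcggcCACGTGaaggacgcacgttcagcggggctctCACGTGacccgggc

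Of the 10 genes, 8 had a RefSeq promoter in the table used, with 13 windows over all their starts; those of MCL1 and BIK are not analysed here. Motifs were searched on both strands over all 35116 windows of this length. The E-box letters were in 6.34% of windows and, of the 8 genes, in BAX, BBC3 and some windows of BID. The BAX window was among 5 windows in all with at least 4 of them. The response element core was in 7.10% of windows and, of the 8 genes, in PMAIP1, and the AP-1 letters were in 6.57% and, of the 8, in BBC3. A composite site bound by ATF4 with C/EBP factors, TGATGNAA, was in 3.14% of windows and in 0 of the 8 genes. GC boxes, GGGCGG, were in 42.6% of windows and in 5 of the 8 genes (BAK1, BAX, BCL2L11, BID and PMAIP1); none of these motifs contains another. A match describes letters in the window, and the motifs were chosen after the sequences had been seen.

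PZH-treated cells held more RNA of MCL1, PMAIP1, BBC3 and BAK1 and less of BCL2, BCL2L11, BAX and BID, while BCL2L1 and BIK did not pass the test. Thus 4 of 10 members rose and 4 fell at an adjusted p under 0.05 (edgeR quasi-likelihood F test, Benjamini-Hochberg over the 15006 genes tested). Over all tested genes 39.3% were higher and 40.9% lower, 80.3% in either direction, so the share of members called is near the background. The median log2 fold change was -0.04 for the 10 members and -0.02 for all tested genes, and the median size of the change, whatever its sign, was 0.88 and 0.69. At least 2-fold changes were seen for 3 members upward and 1 downward, against 15.8% and 18.9% of all tested genes (34.7% in either direction). In each functional class some members moved up and others down: 1 of 3 survival genes rose and 1 fell, 2 of 5 BH3-only genes rose and 2 fell, and 1 of 2 effectors rose and the other fell.

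**Figure D1:**
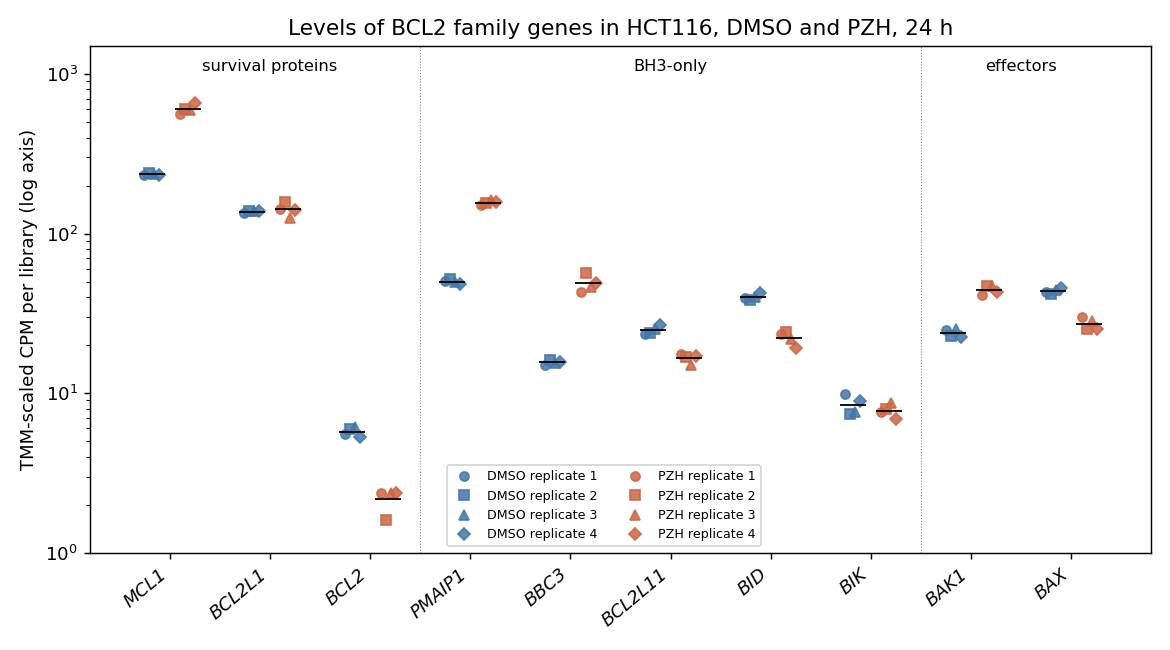
Level of each member in every library, as TMM-scaled CPM on a log axis, for DMSO (blue) and PZH (orange); marker shapes give the replicate number and lines the group mean. The groups are apart for 8 genes and overlap for BCL2L1 and BIK.

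MCL1, a short-lived survival protein, was the most abundant member. Its gene lies at chr1:150574551-150579738 on the minus strand (positions of genes are those of GENCODE v29 on GRCh38, matched by symbol). MCL1 stood at 234, 239, 236 and 233 CPM in DMSO and at 560.4, 599.7, 595 and 655 CPM in PZH. All 4 PZH libraries lay above all DMSO libraries. The mean went from 236 ± 2.72 to 603 ± 39.1 CPM, a rise of 2.56-fold (log2 fold change 1.35, standard error 0.051, adjusted p = 9.14e-17). Gene counts do not separate the long form of MCL1 from its short, death-promoting splice form.

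BCL2L1 encodes BCL-xL and, by another splice site, the death-promoting BCL-xS, which gene counts do not separate (chr20:31664452-31723989, minus strand). It stood at 135, 139, 138 and 138 CPM in DMSO and at 143, 159, 125 and 141 CPM in PZH. The PZH libraries spread on either side of the DMSO libraries. The log2 fold change of 0.05 (95% interval -0.06 to 0.15) did not pass the test (adjusted p = 0.456). The direction depended on the setting: without scaling factors the gene was called lower (log2 fold change -0.21, adjusted p = 0.00109) and with each library's GC trend removed it was called higher (0.24, adjusted p = 4.31e-04). Leaving out PZH replicate 2 gave a log2 fold change of -0.0071 (adjusted p = 0.897).

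The antisense RNA gene ABALON covers 1424 of the 3314 exonic bases of BCL2L1 on the opposite strand. No source used here says whether counting used strand, so reads of the pair may not be told apart where they overlap. Its counts were 130 to 143 per library in DMSO and 32 to 46 in PZH, a fall of 2.81-fold (log2 fold change -1.49, standard error 0.16, adjusted p = 1.82e-08), against 2884 to 2969 and 2072 to 2688 counts for BCL2L1.

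BCL2, the founding survival gene of the family, was scarce in this line (chr18:63123346-63320128, minus strand). It stood at 5.52, 5.96, 6.10 and 5.31 CPM in DMSO and at 2.38, 1.59, 2.36 and 2.36 CPM in PZH, from 111 to 131 and from 27 to 42 counts per library. Every PZH library lay below every DMSO library, and PZH replicate 2 lay below the other PZH libraries. BCL2 fell 2.63-fold (log2 fold change -1.39, standard error 0.17, adjusted p = 1.01e-07), the largest fall among the 10 genes.

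Among the BH3-only genes, PMAIP1 was the most abundant per library and the least variable in PZH. PMAIP1 (chr18:59899948-59904306, plus strand), whose product NOXA binds MCL1 above all, stood at 50.7, 51.7, 49.7 and 48.0 CPM in DMSO and at 152, 155, 161 and 158 CPM in PZH. The groups were far apart, and PZH libraries differed among themselves by a coefficient of variation of 2.54%. The mean of PMAIP1 went from 50.03 ± 1.56 to 156 ± 3.98 CPM, a rise of 3.13-fold (log2 fold change 1.64, standard error 0.046, adjusted p = 4.31e-19).

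BBC3 encodes PUMA, which binds every main survival protein (chr19:47220822-47232766, minus strand). It stood at 15.1, 16.0, 15.4 and 15.7 CPM in DMSO and at 43.2, 56.9, 46.1 and 49.2 CPM in PZH. The DMSO libraries lay within 1 CPM of each other, whereas the PZH libraries varied by a coefficient of variation of 12.1%, with replicate 2 the highest. BBC3 rose 3.14-fold (log2 fold change 1.65, standard error 0.078, adjusted p = 6.75e-15). With the GC trend removed, the log2 fold change of BBC3 was 2.17, and without scaling factors it was 1.39; it was called higher in each case.

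BCL2L11 encodes BIM, the BH3-only protein that binds all survival proteins and can activate BAX and BAK directly (chr2:111119378-111168447, plus strand). It stood at 23.4, 23.8, 25.4 and 26.7 CPM in DMSO and at 17.7, 16.9, 14.98 and 17.02 CPM in PZH. All PZH libraries lay below the DMSO libraries, by a smaller gap than for PMAIP1 and BBC3. BCL2L11 fell 1.49-fold (log2 fold change -0.58, standard error 0.079, adjusted p = 6.52e-07).

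The long noncoding RNA MIR4435-2HG runs across BCL2L11 on the opposite strand and shares 727 of its 6658 exonic bases. Its counts went from 234 to 311 per library in DMSO to 788 to 907 in PZH, a rise of 3.997-fold (adjusted p = 4.12e-16), while those of BCL2L11 went from 503 to 558 down to 248 to 312. Where the exons overlap, reads of these genes may not be told apart, and how much each contributed to the other was not tested.

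BID, which caspase 8 cleaves to link death receptors with mitochondria, fell (chr22:17734138-17774770, minus strand). It stood at 39.6, 38.3, 40.2 and 42.2 CPM in DMSO and at 23.5, 24.2, 21.9 and 19.2 CPM in PZH, with no overlap between groups. The fall was 1.80-fold (log2 fold change -0.85, standard error 0.071, adjusted p = 2.03e-10). BIK, a BH3-only protein of the ER membrane (chr22:43110748-43129712, plus strand), stood at 9.91, 7.38, 7.59 and 8.89 CPM in DMSO and at 7.58, 7.92, 8.70 and 6.91 CPM in PZH. Those ranges overlap, and BIK did not pass the test (log2 fold change -0.12, 95% interval -0.36 to 0.13, adjusted p = 0.383), but without scaling factors it was called lower (-0.38, adjusted p = 0.0103).

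The effectors went opposite ways. BAX, which moves from the cytosol to mitochondria when activated (chr19:48954815-48961798, plus strand), stood at 42.8, 42.03, 44.2 and 45.5 CPM in DMSO and at 29.8, 25.3, 28.5 and 25.1 CPM in PZH. It fell 1.61-fold (log2 fold change -0.68, standard error 0.066, adjusted p = 2.31e-09). BAK1, whose product BAK sits in the mitochondrial membrane already in healthy cells (chr6:33572547-33580293, minus strand), stood at 24.8, 22.9, 25.1 and 22.3 CPM in DMSO and at 41.3, 46.6, 47.2 and 43.3 CPM in PZH. It rose 1.87-fold (log2 fold change 0.90, standard error 0.066, adjusted p = 1.67e-11). For both genes the groups do not overlap. The processed pseudogene BAK1P1 had 3 to 16 counts per library, against 467 to 789 for BAK1, and some reads may be shared between them.

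The groups did not overlap for 8 of the 10 members, where 75.0% of all tested genes had no overlap. PZH libraries varied more than DMSO libraries: the coefficient of variation was larger in PZH for 8 members, with medians over the 10 of 3.77% in DMSO and 9.13% in PZH. BIK and PMAIP1 were the exceptions.

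**Figure D2:**
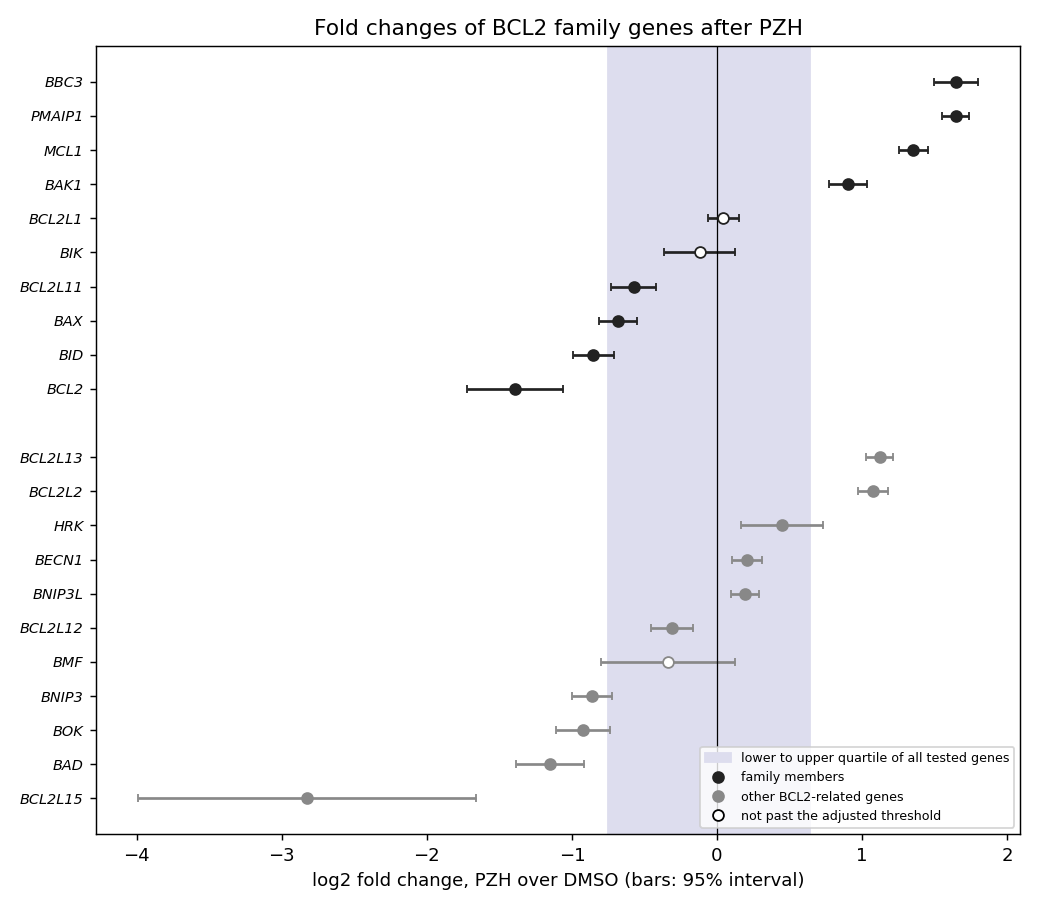
Log2 fold change of PZH over DMSO for the 10 members (black) and the 11 tested other BCL2-related genes (grey), with 95% intervals as bars; open circles did not pass the adjusted threshold, and the band spans the lower to the upper quartile of all tested genes (-0.75 to 0.64). BBC3, PMAIP1, MCL1 and BAK1 lie above the band, and BCL2 and BID lie below it.

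Levels can be compared between genes only per length, so CPM were divided by the length of all exons of each gene in GENCODE v29, in kb. On this scale DMSO cells held 53.9 ± 0.623 CPM per kb of MCL1, 41.5 ± 0.480 of BCL2L1 and 22.4 ± 0.699 of PMAIP1, followed by BAX (16.9 ± 0.597), BAK1 (10.8 ± 0.625), BID (9.01 ± 0.361), BIK (8.86 ± 1.24), BBC3 (4.89 ± 0.132), BCL2L11 (3.73 ± 0.227) and BCL2 (0.486 ± 0.0316). Neighbours in this order did not overlap between libraries except BID and BIK. In PZH the order was MCL1 (138 ± 8.94 CPM per kb), PMAIP1 (70.02 ± 1.78), BCL2L1 (42.8 ± 4.15), BAK1 (20.2 ± 1.27), BBC3 (15.4 ± 1.85), BAX (10.5 ± 0.911), BIK (8.16 ± 0.782), BID (4.99 ± 0.499), BCL2L11 (2.499 ± 0.173) and BCL2 (0.185 ± 0.0328), with no overlap between neighbours. PMAIP1 thus stood above BCL2L1, and BAK1 and BBC3 above BAX, in PZH but not in DMSO. A gene whose transcripts use only part of the annotated exons is understated on this scale.

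As a share of the summed level per length of the 10 genes, which does not depend on the scaling between libraries, MCL1 went from 31.3 ± 0.423% in DMSO to 44.1 ± 1.72% in PZH and PMAIP1 from 12.99 ± 0.418% to 22.4 ± 0.742%. BBC3 went from 2.84 ± 0.0834% to 4.91 ± 0.473%. BCL2L1 went from 24.1 ± 0.324% to 13.7 ± 1.25% and BAX from 9.78 ± 0.340% to 3.37 ± 0.406%. By class, the 3 survival genes held 55.6 ± 0.702% in DMSO and 57.8 ± 1.47% in PZH, the 5 BH3-only genes 28.4 ± 0.595% and 32.3 ± 0.893%, and the 2 effectors 16.02 ± 0.410% and 9.82 ± 0.588%. Within the survival share, the part of MCL1 was therefore larger and that of BCL2L1 smaller in PZH. The effector share was mostly BAX in DMSO and mostly BAK1 (6.45 ± 0.367%) in PZH. A smaller share need not mean less RNA, as the summed level went from 172 ± 0.424 to 313 ± 10.4 CPM per kb. BCL2L1 itself stood at 41.5 CPM per kb in DMSO and 42.8 in PZH. Of the effectors, BAX went from 16.9 to 10.5 CPM per kb and BAK1 from 10.8 to 20.2. These shares are descriptions, with no test.

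**Figure D3:**
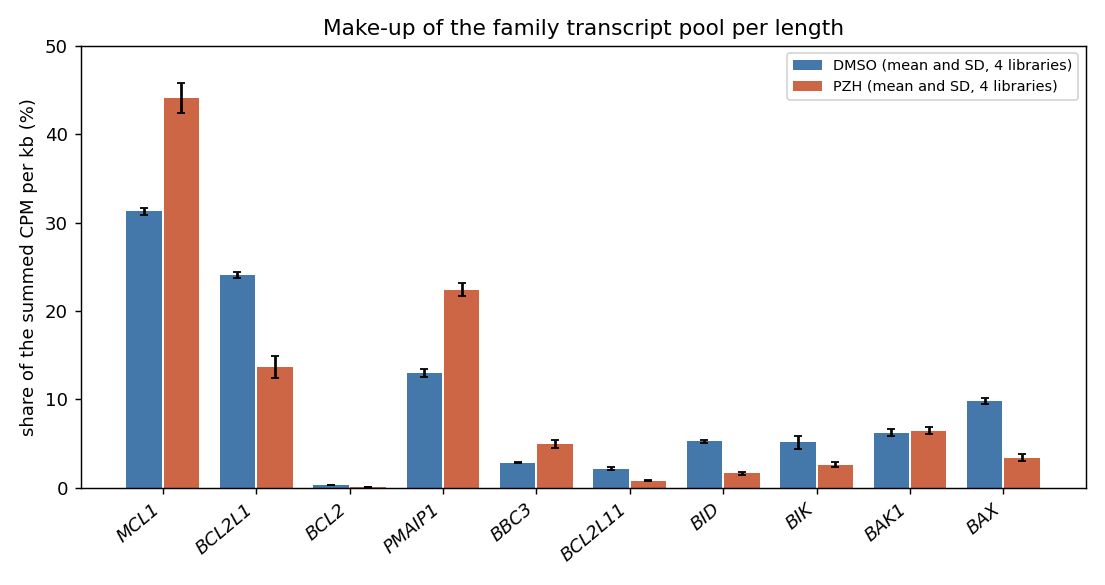
Share of each member in the summed CPM per kb of the 10 genes, as the mean and SD of 4 libraries per group. MCL1, PMAIP1 and BBC3 take a larger share in PZH, BAK1 a share within 1 SD of that in DMSO, and BCL2L1, BAX, BID, BIK, BCL2L11 and BCL2 a smaller one.

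Ratios of counts between members of a library, which also need no scaling, were given for 6 pairs of binding partners or alternatives, as descriptions with no test. There were 0.217, 0.216, 0.210 and 0.206 PMAIP1 counts per MCL1 count in DMSO and 0.271, 0.258, 0.271 and 0.241 in PZH. The RNA of NOXA rose 3.13-fold and that of its main partner MCL1 2.56-fold, and the ratio was 1.23-fold higher in PZH. BCL2L11 counts per MCL1 count were 0.0995 to 0.114 in DMSO and 0.0252 to 0.0316 in PZH, 3.80-fold lower. Those of BBC3 per BCL2L1 count were 0.112 to 0.116 and 0.303 to 0.368, 3.03-fold higher in PZH.

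BAX exceeded BAK1 in every DMSO library, with ratios of 1.72, 1.83, 1.76 and 2.04, and fell short of it in every PZH library, with ratios of 0.723, 0.543, 0.603 and 0.580. Counts of these genes also reflect transcript length, so the change of the ratio (3.01-fold), rather than its place above or below 1, is the comparison. MCL1 counts per BCL2L1 count were 1.73, 1.73, 1.71 and 1.69 in DMSO and 3.93, 3.78, 4.75 and 4.66 in PZH, 2.48-fold higher in PZH. PZH replicates 3 and 4 were the higher ones for this pair. BCL2 counts per BCL2L1 count went from 0.0387 to 0.0443 in DMSO to 0.0102 to 0.0191 in PZH, 2.71-fold lower, with the smallest value in PZH replicate 2.

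**Figure D4:**
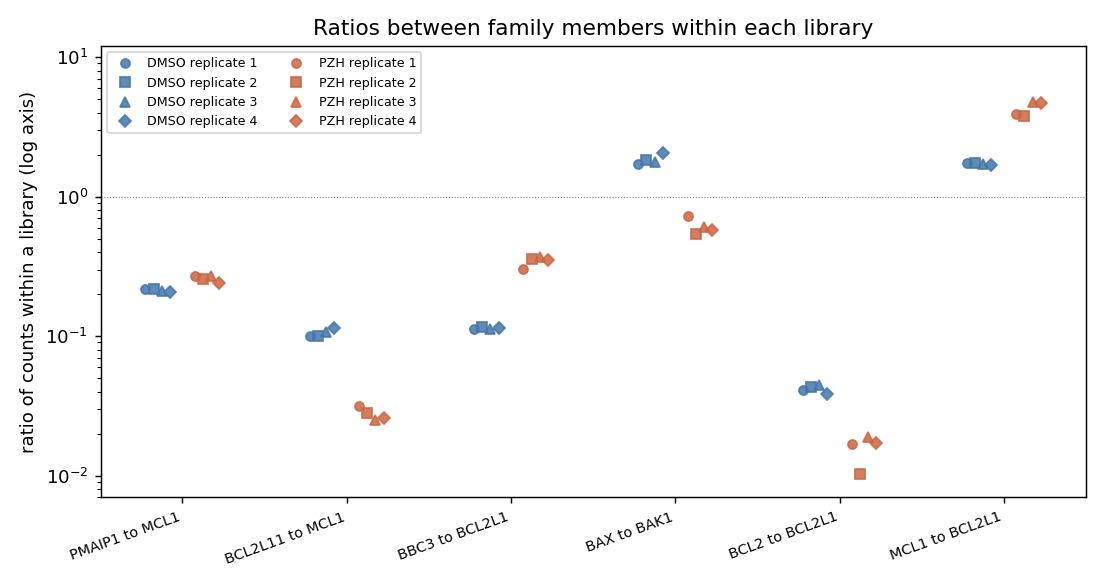
Ratio of counts of 6 pairs of members within each library, on a log axis, for DMSO (blue) and PZH (orange); shapes give the replicate number. The groups are apart for all 6 pairs, and BAX to BAK1 crosses 1. Each pair holds at least 1 called member, and 75.0% of single tested genes had no overlap between groups. The share for other pairs of genes was not computed.

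Relatives of the family outside the 10 genes also went both ways. Of 14 such genes, 11 were tested, 5 rose, 5 fell and BMF, a BH3-only gene, did not pass (2.13 ± 0.236 CPM in DMSO and 1.69 ± 0.472 CPM in PZH, adjusted p = 0.195). Without scaling factors BMF was called lower (log2 fold change -0.60, adjusted p = 0.024). Of all tested genes 39.3% were higher, 40.9% lower and 80.3% called, so these counts are near the background. BCL2L2, which encodes the survival protein BCL-w, rose 2.11-fold from 39.7 ± 1.296 to 83.9 ± 4.18 CPM, and BCL2L13, an outer membrane protein with BH regions, rose 2.18-fold from 56.4 ± 0.921 to 123 ± 5.28 CPM. The BH3-only gene BAD fell 2.22-fold from 11.2 ± 0.970 to 5.02 ± 0.375 CPM, and BOK, a relative of BAX and BAK, fell 1.89-fold from 27.8 ± 1.54 to 14.6 ± 2.53 CPM. With the GC trend removed both falls were smaller but still called. The log2 fold change was then -0.72 against -1.15 for BAD and -0.50 against -0.92 for BOK. BNIP3, which directs mitochondria to autophagy, fell 1.82-fold.

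Smaller changes were those of the BH3-only gene HRK (1.36-fold higher), BCL2L12 (1.24-fold lower), BECN1, an autophagy protein that binds BCL2 (1.15-fold higher), and BNIP3L (1.14-fold higher). Without scaling factors HRK was no longer called (log2 fold change 0.19, adjusted p = 0.245), and the log2 fold changes of BNIP3L (-0.07) and BECN1 (-0.05) turned. With the GC trend removed neither BCL2L12 (-0.07, adjusted p = 0.393) nor BNIP3L (0.10, adjusted p = 0.0586) was called. BCL2L15 had 12 to 18 counts per library in DMSO and 0 to 3 in PZH (log2 fold change -2.82, standard error 0.59). BCL2A1, BCL2L10 and BCL2L14 had at most 8 counts in any library and were not tested.

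Genes of the mitochondrial outer membrane, the proteins it releases and the caspases, CASP8 upstream of BID included, were mixed as well, with 6 of 14 higher, 7 lower and 1 not called (median log2 fold change -0.02), again near the 80.3% called among all tested genes. The 4 with the smallest p all fell. VDAC3 and VDAC1, channels of the outer membrane, fell 2.38-fold from 164 ± 1.78 to 68.9 ± 3.90 CPM and 1.58-fold from 402 ± 9.88 to 255 ± 18.9 CPM. MTCH2, an outer membrane protein that receives cleaved BID, fell 1.77-fold from 115 ± 2.24 to 65.1 ± 2.52 CPM, and AIFM1, a flavoprotein released from mitochondria in death, fell 1.85-fold from 74.2 ± 1.91 to 40.1 ± 2.48 CPM.

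Among 8 transcription factors and cofactors known to act on BH3-only genes, 6 rose and 2 fell, with a median log2 fold change of 1.48, where 39.3% of all tested genes were higher and 40.9% lower with a median of -0.02. DDIT3, which encodes CHOP, went from 3.54 to 5.21 CPM in DMSO to 357 to 426 CPM in PZH (log2 fold change 6.47, adjusted p = 1.19e-23). The CHOP partner TRIB3 rose 16.1-fold from 34.3 ± 1.42 to 552 ± 32.2 CPM, and JUN, a component of AP-1, rose 37.2-fold from 10.7 ± 0.413 to 399 ± 77.02 CPM. ATF4 rose 3.76-fold from 347 ± 18.9 to 1304 ± 91.9 CPM. The 2 that fell were E2F1, a cell cycle transcription factor, 7.43-fold lower from 30.1 ± 1.275 to 4.05 ± 0.742 CPM, and FOXO1, a forkhead factor, 1.88-fold lower from 19.8 ± 0.798 to 10.5 ± 1.27 CPM. Earlier results of these data had already shown the rises of DDIT3, ATF4 and JUN.

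Of 7 genes that set the stability of MCL1 protein or the transcription or partners of the family, 6 rose and HUWE1, a ubiquitin ligase of MCL1, did not pass (log2 fold change 0.08, adjusted p = 0.149). Of all tested genes 39.3% were higher and 80.3% called. For HUWE1, 12 of 17 alternatives kept the direction and the side of the threshold. Without scaling factors it was called lower (-0.18, adjusted p = 4.59e-04). It was called higher with DESeq2 (0.10, adjusted p = 0.0301), with the GC trend removed (0.12, adjusted p = 0.0318), without PZH replicate 1 (0.11, adjusted p = 0.0323) and without PZH replicate 2 (0.10, adjusted p = 0.0416). USP9X, a deubiquitinase that spares MCL1 protein, rose 1.65-fold from 171 ± 2.13 to 283 ± 19.6 CPM. TMBIM6, an ER protein also called BAX inhibitor 1, rose 1.56-fold from 703 ± 17.6 to 1094 ± 27.7 CPM, and BTRC, a ubiquitin ligase subunit, rose 1.42-fold. The co-chaperone BAG3 stood at 126 to 132 CPM in DMSO and at 277, 273, 492 and 517 CPM in PZH, so that replicates 3 and 4 lay above replicates 1 and 2, and the rise was 3.003-fold.

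**Figure D5:**
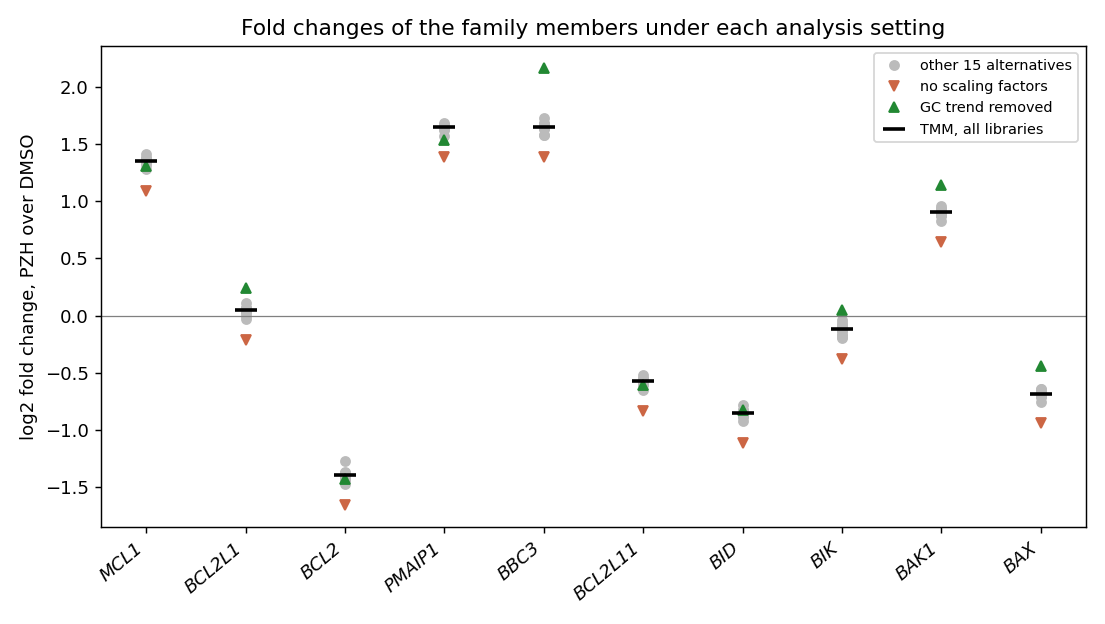
Log2 fold change of each member under the main setting (black line), without scaling factors (orange), with the GC trend removed (green) and under the other 15 alternatives (grey). BCL2L1 and BIK have values on both sides of 0, and the other 8 members keep their direction.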

How the data were processed

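Poly(A) RNA of 8 HCT116 samples, 4 PZH and 4 DMSO, was analysed from 1 table. The authors deposited whole-number counts per gene symbol, not normalized, with 1 column per library and 0 columns of no sample. The submitters' processing notes name DESeq 1.28.0, StringTie 1.3.3b, HISAT2 2.1.0 and FastQC 0.11.5 and give no role for any; genome build, annotation and strand use: not given in the sources used here, and 98.8% of the symbols were in GENCODE v29. In 25 rows the symbol reads as a date; they hold 0.178% to 0.220% of counts and stayed in.

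After filterByExpr (minimum count 10, minimum total 15) and TMM scaling, the groups were compared with edgeR (glmQLFit and glmQLFTest, two-sided, group as the only term) and Benjamini-Hochberg adjustment. A standard error is |log2 fold change| over the root of F; 95% intervals span 1.96 of them on each side. Ratios within a library used a pseudocount of 0.5 counts. The script was tested on simulated data with few changed genes, as many up as down. That does not test the scaling for these data, where 80.3% of tested genes were called. Versions were Python 3.11.15, R 4.3.3, DESeq2 1.42.0, limma 3.58.1 and edgeR 4.0.16.

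A floor of 3 counts is 0.151 to 0.165 CPM, for counting error only. No pair of replicates matched within counting noise. Chi-square over its degrees of freedom was 2.39 to 2.81 in DMSO and 4.03 to 12.3 in PZH. In PZH the lowest value was that of replicates 3 and 4, and the other pairs lay between 8.33 and 12.3. The 10 members, the gene lists and the 6 pairs for ratios were chosen with earlier results of these data known. Named genes are all members, every tested relative and the 4 smallest p of each other list; HUWE1, E2F1, FOXO1, CASP8 and the untested relatives were named after their values were seen. Alternatives were other scaling factors (RLE, upper quartile, none), other filters, DESeq2, limma-voom, the replicate number as a block, leaving out each library, and removal of each library's GC trend, the last chosen after seeing the data.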

Additional observations from a re-analysis of the deposited data

Results flagged for a closer look

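BCL2 in PZH replicate 2 stood at 1.59 CPM, apart from the other PZH libraries, which lay between 2.36 and 2.38 CPM. The gap took 97.3% of the range of the group, above the limit of Dixon's test for 4 samples. Without this library the log2 fold change of BCL2 was -1.27 (edgeR adjusted p = 3.65e-07), against -1.39 with it. The library had 27 counts of BCL2, against 39 to 42 in the other PZH libraries. Each of the 10 members was checked in both groups, 20 checks in all, and chance alone flags about 1 in 20.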

How the results depend on the processing

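Each member's fold change was recomputed under 17 alternatives, which gave 170 values, and 164 kept their direction and their side of the threshold. The 8 called members kept both under all 17, with log2 fold changes of 1.09 to 1.41 for MCL1, 1.39 to 1.68 for PMAIP1, 1.39 to 2.17 for BBC3, 0.64 to 1.14 for BAK1, -0.94 to -0.44 for BAX, -1.11 to -0.78 for BID, -0.83 to -0.52 for BCL2L11 and -1.65 to -1.27 for BCL2. The other 6 values belong to BCL2L1 and BIK. BCL2L1 turned to -0.029 with upper quartile factors, to -0.21 without scaling factors and to -0.0071 without PZH replicate 2 (the highest value on leaving out 1 library was 0.11), and was called higher, at 0.24, with the GC trend removed. BIK was called lower, at -0.38, without scaling factors and stood at 0.053 with the GC trend removed (-0.18 to -0.04 on leaving out each library).

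With no scaling factors, the median over all genes went from -0.02 to -0.28, and 36.8% of the calls were higher in place of 49.0%. The counts of members, 4 higher and 4 lower, then became 4 and 6. Of the relatives 2 in place of 5 were called higher, and 1 gene of MCL1 turnover was called lower, where the main count is 0; BNIP3L (-0.067), BECN1 (-0.052) and HUWE1 (-0.18) turned. The cause was not tested. The numbers of replicates did not pair the libraries (correlation of deviations from the group mean 0.000736 to 0.0113 for equal numbers): with the replicate block 5889 genes were higher and 6125 lower, against 5901 and 6143, and the members stayed at 4 higher and 4 lower. The 6 ratios between members kept their direction under their alternatives and moved by less than the SD pooled over both groups, while 4 of the 6 moved by more than the smaller SD of the DMSO libraries, BCL2 to BCL2L1 by up to 0.20 on the log2 scale. Depth limits BCL2 most, with 489 and 147 counts over the 4 libraries of each group.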
